A study of Mus musculus with 13 samples.

Results

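Levels of 34 cell cycle genes were followed in RNA sequencing libraries labelled as mouse bone marrow mesenchymal stromal cells (MSCs). The genes were chosen by symbol, as widely used markers of S phase (15 genes) and mitosis (19 genes), and all 34 were found among the 33432 named gene rows of the expression table. The rule itself used no measured value. By role they were 8 genes of replication licensing and the replication fork, 4 of nucleotide supply, 3 of entry into S phase, 8 mitotic cyclins, kinases and partners, 4 of the spindle checkpoint and anaphase promotion, 3 of the kinetochore and centromere, and 4 of the spindle, chromosome surface and DNA topology.

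The 13 libraries came from 3 healthy, 6 pre-leukemic and 4 recovered MSC samples. All mice were on a C57BL/6J background (strain label C57BL/6), and the cells were sorted from mixed nucleated cells of marrow and compact bone. Healthy libraries came from control mice under homeostasis and pre-leukemic libraries from pre-leukemic mice. The label "recovered" corresponds to pre-leukemic mice that had been treated with MSCs. The allele or agent behind the pre-leukemia, the ages, the sort markers, the schedule of the MSC treatment and any pooling of animals are details not given in the sources used here. Nothing says that replicates came from separate animals, so the p-values below take their measure from the spread between libraries, which may be technical.

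Cells in G1 load the MCM helicase onto origins, and cyclin E with its kinase then triggers S phase, in which PCNA clamps polymerases to DNA and ribonucleotide reductase supplies deoxynucleotides. Cyclin A and cyclin B kinases drive entry into mitosis, where the spindle checkpoint holds the anaphase-promoting complex until every kinetochore is attached. Most of these transcripts are kept low in resting cells by repressor complexes and are made in waves, those of S phase through E2F sites and those of mitosis through CHR and CCAAT elements. Marrow stromal cells are known as a mostly resting population, whereas precursors of blood cells divide often.

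The promoters of 5 members are printed because they hold these elements in different combinations in genes described below. Each is the 250 bases before the RefSeq start (GRCm38.p6, the assembly of mm10), 5′ to 3′ on the gene's strand, with matches in capitals. Mcm2 is read from chr6:88898781-88899030 (minus strand), Rrm2 from chr12:24708004-24708253 (plus), Ccnb2 from chr9:70421555-70421804 (minus), Cdc20 from chr4:118437344-118437593 (minus) and Cdk1 from chr10:69352913-69353162 (minus).
Mcm2: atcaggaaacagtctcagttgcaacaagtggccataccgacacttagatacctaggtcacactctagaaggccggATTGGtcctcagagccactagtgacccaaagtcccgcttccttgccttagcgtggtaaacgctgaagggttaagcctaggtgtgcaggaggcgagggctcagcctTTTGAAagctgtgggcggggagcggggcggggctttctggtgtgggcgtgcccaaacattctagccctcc
Rrm2: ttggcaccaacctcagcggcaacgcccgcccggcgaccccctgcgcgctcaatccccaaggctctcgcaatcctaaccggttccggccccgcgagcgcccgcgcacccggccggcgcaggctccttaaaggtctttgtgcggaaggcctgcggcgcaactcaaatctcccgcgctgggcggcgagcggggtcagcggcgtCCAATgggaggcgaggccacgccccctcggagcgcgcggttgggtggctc
Ccnb2: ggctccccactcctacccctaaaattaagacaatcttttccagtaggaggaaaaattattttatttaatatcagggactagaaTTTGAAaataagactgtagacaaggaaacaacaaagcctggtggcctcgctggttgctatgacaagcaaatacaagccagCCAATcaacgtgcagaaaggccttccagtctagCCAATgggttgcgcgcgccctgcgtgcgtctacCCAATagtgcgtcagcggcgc
Cdc20: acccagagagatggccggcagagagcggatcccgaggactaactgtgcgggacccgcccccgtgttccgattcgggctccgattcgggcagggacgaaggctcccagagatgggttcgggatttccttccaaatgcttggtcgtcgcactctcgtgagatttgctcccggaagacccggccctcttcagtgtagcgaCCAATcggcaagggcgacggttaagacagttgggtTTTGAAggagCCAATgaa
Cdk1: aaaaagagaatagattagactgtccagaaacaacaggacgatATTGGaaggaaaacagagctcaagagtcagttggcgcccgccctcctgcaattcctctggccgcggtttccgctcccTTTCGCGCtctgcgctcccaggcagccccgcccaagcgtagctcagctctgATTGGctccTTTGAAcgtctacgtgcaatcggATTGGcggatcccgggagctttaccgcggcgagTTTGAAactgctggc
Capitals mark CCAAT or its reverse complement ATTGG, the CHR word TTTGAA on either strand, and in Cdk1 the E2F word TTTCGCGC.

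The Rrm2 window held 1 CCAAT and neither other word. Cdc20 held TTTGAA at -18 with CCAAT at -53 and -8, and Ccnb2 held TTTGAA at -167 with CCAAT at -87, -54 and -21. Cdk1 held TTTGAA at -71 and -15, CCAAT at -208, -80 and -48, and the E2F word at -131. Mcm2, an S phase gene, had TTTGAA at -70 and CCAAT at -175. Positions count back from the start, and no matches overlapped each other in these windows.

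Of the 34 members, 30 were matched to the promoter table (Aurkb, Ccna2, Ccne2 and Mcm4 were not). With both strands searched, a gene was counted if any of its promoter windows held the word. CCAAT was counted in 80.0% of the matched members, against 37.5% of all 27018 genes with a window and 40.2% of the tested genes among them. The CHR words TTTGAA or TTCGAA were in 36.7% of members, against 19.5% of all genes with a window. An E2F word (TTTGGCGC, TTTCGCGC, TTTCCCGC or TTTGCCGC) was in 4 members (13.3%, against 2.16%). Both CCAAT and CHR stood in 8 of 17 mitosis members (47.1%) and 3 of 13 S phase members (23.1%), against 7.0% of all genes with a window. A match of letters is a description and not a bound site.

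Expression was deposited as FPKM, a fragment count scaled by transcript length and library size, so levels can be set side by side between genes. Differences are given on the log2(FPKM + 1) scale with the standard error, which understates changes of low genes. Adjusted p-values are limma's, with Benjamini-Hochberg adjustment over the 13118 genes that reached 1 FPKM in 3 or more libraries, and a gene was called under 0.05. Of the 34 members 32 passed that filter and Cenpe and Cenpf did not. Healthy 1 and 3 differed by close to sampling noise, with a chi-square of 1.21 per degree of freedom against at least 11.22 in every other pair within a group, and their mean was used as 1 sample (healthy n = 2, pre-leukemic n = 6, recovered n = 4).

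A read on a transcript of 1 kb was worth an estimated 0.312 to 0.382 FPKM in the healthy group, 0.164 to 0.237 in the pre-leukemic group and 0.349 to 0.637 in the recovered group, and the members' values above 0 and under 1 FPKM rest on an estimated 1 to 41 reads (median 6), the highest for the long Cenpf transcript. The marker levels went with the mesenchymal label in healthy libraries and, at lower sums, in recovered ones. In the pre-leukemic libraries they went against it. The summed FPKM of 16 mesenchymal stromal markers was 5793.2 to 6748.5 in healthy libraries, 74.7 to 311.8 in the pre-leukemic ones and 2576.5 to 3360.6 in the recovered ones, and the osteoblast markers Sp7 and Bglap were listed at 0 in all 6 pre-leukemic libraries. The 16 pan-leukocyte markers summed to 93.2 to 110.6, 2633.1 to 3390.5 and 54.9 to 277.8, and Ptprc (CD45) was at 80.7 to 155 FPKM in pre-leukemic libraries against 0.0797 to 1.25 in healthy ones. Plasma cell markers summed to 46767.7 to 73122.2 in pre-leukemic libraries against 159.6 to 198.6 in healthy ones. Neutrophil and granulocyte precursor markers summed to 3143.0 to 15576.7 against 112.8 to 145.8. For monocyte and macrophage markers the sums were 3407.5 to 5161.4 against 19.1 to 23.6. Erythroid markers were lower, at 0 to 7.0 against 37.4 to 51.7. Immunoglobulin genes made up 54.9 to 80.5% of all FPKM in pre-leukemic libraries and at most 0.134% elsewhere. In bulk RNA, fewer or more cells of a type and less or more RNA per cell cannot be told apart.

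Summed over all 34 members, the level was 288.9 ± 30 FPKM (SD, n = 2) in healthy, 749.4 ± 273 (n = 6) in pre-leukemic and 575.5 ± 150 (n = 4) in recovered samples. The healthy libraries lay at 268.3, 310.1 and 267.2, the pre-leukemic ones between 372.7 and 1084, and the recovered ones at 423.2, 636.8, 486.2 and 755.8. Every pre-leukemic and every recovered library was above every healthy one, and the former overlapped each other. Scaled so that every library has the same total (TPM), the levels changed to 467.9, 453.4 and 814.8. The order of the groups therefore depended on the scale, and most of what follows is given gene by gene.

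**Figure D1:**
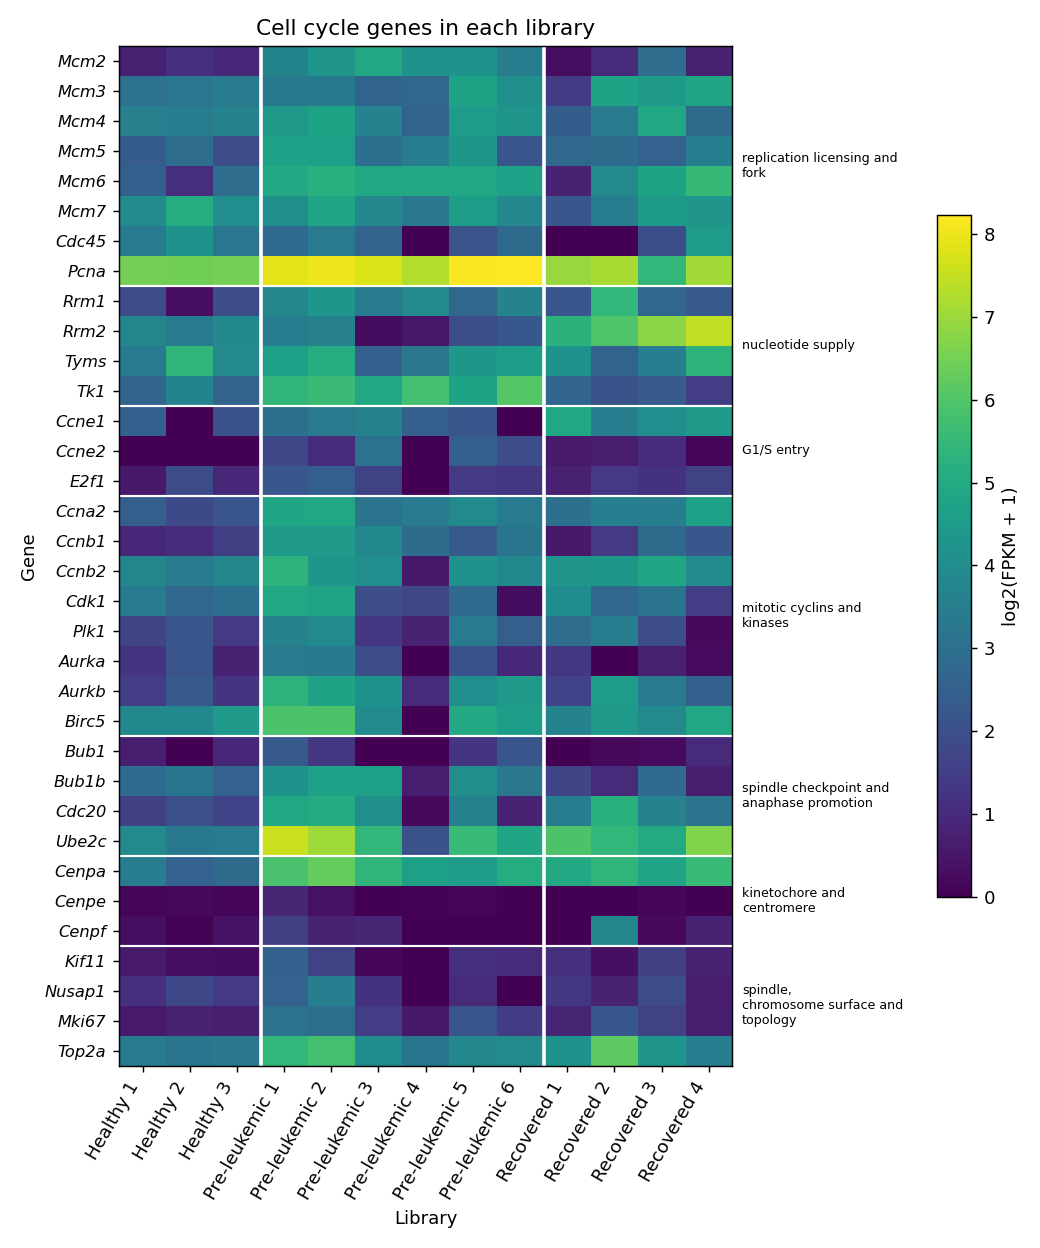
Heat map of log2(FPKM + 1) for the 34 cell cycle genes (rows, grouped by role) in the 13 libraries (columns, grouped by condition with white lines). Pcna is the brightest row in the pre-leukemic columns, and Mcm2, Mcm6 and Tk1 are brighter there than in the healthy ones. Rrm2 is brighter in the recovered columns than in the others, and pre-leukemic 4 is dark for most mitosis genes.

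The first comparison asked how samples labelled as pre-leukemic MSCs differed from healthy ones. Of the 32 members tested 8 were called higher (25.0%) and 0 lower, against 14.2% higher and 13.1% lower among all 13118 genes. The called members were Cenpa, Mcm2, Tk1, Pcna, Mcm6, Ccnb1, Rrm1 and Ccna2. In each of the 8, every pre-leukemic library was above every healthy library, a pattern also seen in 23.7% of all genes tested, close to the 25.0% of the members. In 0 members was every pre-leukemic library below every healthy one, against 20.6% of all genes. The median change was 0.94 over the members and 0.20 over all genes, and 26 of the 32 changes were above 0. At an unadjusted p under 0.05, 10 members were higher and 0 lower.

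Among the replication licensing genes, Mcm2, a subunit of the hexameric MCM helicase (chr6:88883474-88898780), was at 0.637, 1.21 and 0.915 FPKM in healthy 1 to 3 and at 10.1 to 28.7 FPKM (median 17.8) in pre-leukemic libraries. The lowest pre-leukemic library stood well clear of the highest healthy one, and the difference was 3.15 ± 0.65 (adjusted p = 0.00248, range over the 24 alternatives 0.000168 to 0.0483). Mcm6, another subunit (chr1:128331590-128359664), was at 4.90, 1.16 and 6.66 FPKM in healthy and 25.4 to 36.4 (median 29.9) in pre-leukemic libraries. The 6 pre-leukemic libraries were close together, and the difference was 3.02 ± 0.90 (adjusted p = 0.022).

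The remaining helicase subunits were not called. Mcm5 differed by 1.16 ± 0.66 (adjusted p = 0.213), Mcm4 by 0.49 ± 0.68 (0.63), Mcm3 by 0.25 ± 0.82 (0.853) and Mcm7 by -0.48 ± 0.63 (0.607). The 6 proteins form 1 ring, and their transcripts summed to 43.1 to 61.4 FPKM in healthy and 78.2 to 142 in pre-leukemic libraries. Mcm2 made up 1.48 to 1.98% of that sum in healthy libraries, 10.6 to 30.4% in pre-leukemic ones and 0.649 to 6.09% in recovered ones. Cdc45, which joins MCM in the active helicase, was at 9.19, 17.2 and 8.40 FPKM in healthy libraries and 0 to 9.33 in pre-leukemic ones (-1.44 ± 1.09, 0.354).

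Pcna, the sliding clamp of DNA polymerases (chr2:132249162-132253314), was the most abundant member in healthy and pre-leukemic libraries. It was at 89.8, 85.1 and 89.3 FPKM in healthy libraries and 155 to 298 (median 246) in pre-leukemic ones. The groups did not overlap, and the difference was 1.44 ± 0.42 (adjusted p = 0.0195). Scaled to TPM, the sign turned (-0.23, adjusted p = 0.785, the highest of a range from 0.00105).

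For nucleotide supply, Tk1, the thymidine kinase of the salvage route (chr11:117815526-117826092), was at 5.46, 12 and 5.09 FPKM in healthy and 26.6 to 66.3 (median 44.0) in pre-leukemic libraries. All 6 lay above healthy 2, the highest healthy library, and the difference was 2.24 ± 0.51 (adjusted p = 0.0046). Rrm1, the large subunit of ribonucleotide reductase (chr7:102441695-102469771), was at 2.74, 0.277 and 2.81 FPKM in healthy and 5.76 to 19 (median 12.3) in pre-leukemic libraries (2.51 ± 0.79, adjusted p = 0.029).

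Its partner Rrm2, the small subunit (chr12:24708241-24714146), was not called. Rrm2 was at 12.8, 9.40 and 13.3 FPKM in healthy libraries and at 10.1, 10.9, 0.213, 0.433, 2.98 and 3.78 in pre-leukemic 1 to 6. The groups overlapped, and the change was -1.58 ± 0.86 (adjusted p = 0.192). Rrm2 was thus above Rrm1 in every healthy library, with a ratio of 4.66, 33.9 and 4.74, and below it in every pre-leukemic library, with ratios of 0.0223 to 0.794. Tyms, which makes thymidylate, differed by -0.45 ± 0.79 (0.71).

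None of the 3 genes of entry into S phase was called. Ccne1, cyclin E1, was at 4.76, 0 and 3.18 FPKM in healthy and 0 to 11.2 in pre-leukemic libraries (1.28 ± 0.87, adjusted p = 0.297). Ccne2, cyclin E2, was listed at 0 in all 3 healthy libraries and in pre-leukemic 4, and at 1.02 to 7.64 FPKM in the other pre-leukemic libraries (adjusted p = 0.0669). E2f1, an activator of S phase genes, differed by 0.20 ± 0.61 (0.844).

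Mitotic cyclins were among the called genes. Ccnb1, cyclin B1 (chr13:100778650-100786570), was at 0.884, 1.07 and 1.97 FPKM in healthy and 4.01 to 20.9 (median 10.8) in pre-leukemic libraries, with no overlap (2.37 ± 0.71, adjusted p = 0.0227). Ccna2, cyclin A2 (chr3:36564865-36572150), was at 4.58, 2.53 and 3.49 FPKM in healthy and 7.94 to 29.9 (median 11.9) in pre-leukemic libraries, also without overlap (1.87 ± 0.61, adjusted p = 0.0355). Their kinase Cdk1 was at 9.32, 5.80 and 7.11 FPKM in healthy libraries and spread from 0.213 to 30.0 in pre-leukemic ones (-0.22 ± 1.06, adjusted p = 0.899). The 5 remaining members of this role, Ccnb2, Plk1, Aurka, Aurkb and Birc5, were not called, with changes from 0.14 to 2.11 and adjusted p of 0.126 to 0.925.

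At the centromere, Cenpa, the histone H3 variant that marks it (chr5:30666777-30674830), was at 10.1, 5.05 and 6.15 FPKM in healthy and 22.3 to 77.8 (median 37.7) in pre-leukemic libraries. Its lowest pre-leukemic value was above its highest healthy one, and the difference was 2.43 ± 0.50 (adjusted p = 0.00218). Cenpe and Cenpf, a kinetochore motor and a kinetochore-associated protein, were under 1 FPKM in every library except pre-leukemic 1 (Cenpf, 1.94) and recovered 2 (Cenpf, 12.7). The spindle checkpoint and anaphase genes Bub1, Bub1b, Cdc20 and Ube2c, and the group of Kif11, Nusap1, Mki67 and Top2a, held no call. Mki67, the antigen most used to count cycling cells, was at 0.502, 0.681 and 0.627 FPKM in healthy and 0.478 to 7.55 (median 2.63) in pre-leukemic libraries (1.26 ± 0.67, adjusted p = 0.184). Top2a, topoisomerase II alpha, was at 9.28, 8.25 and 8.84 FPKM against 8.09 to 53.8 (median 14.6), a difference of 1.09 ± 0.75 (0.302).

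**Figure D2:**
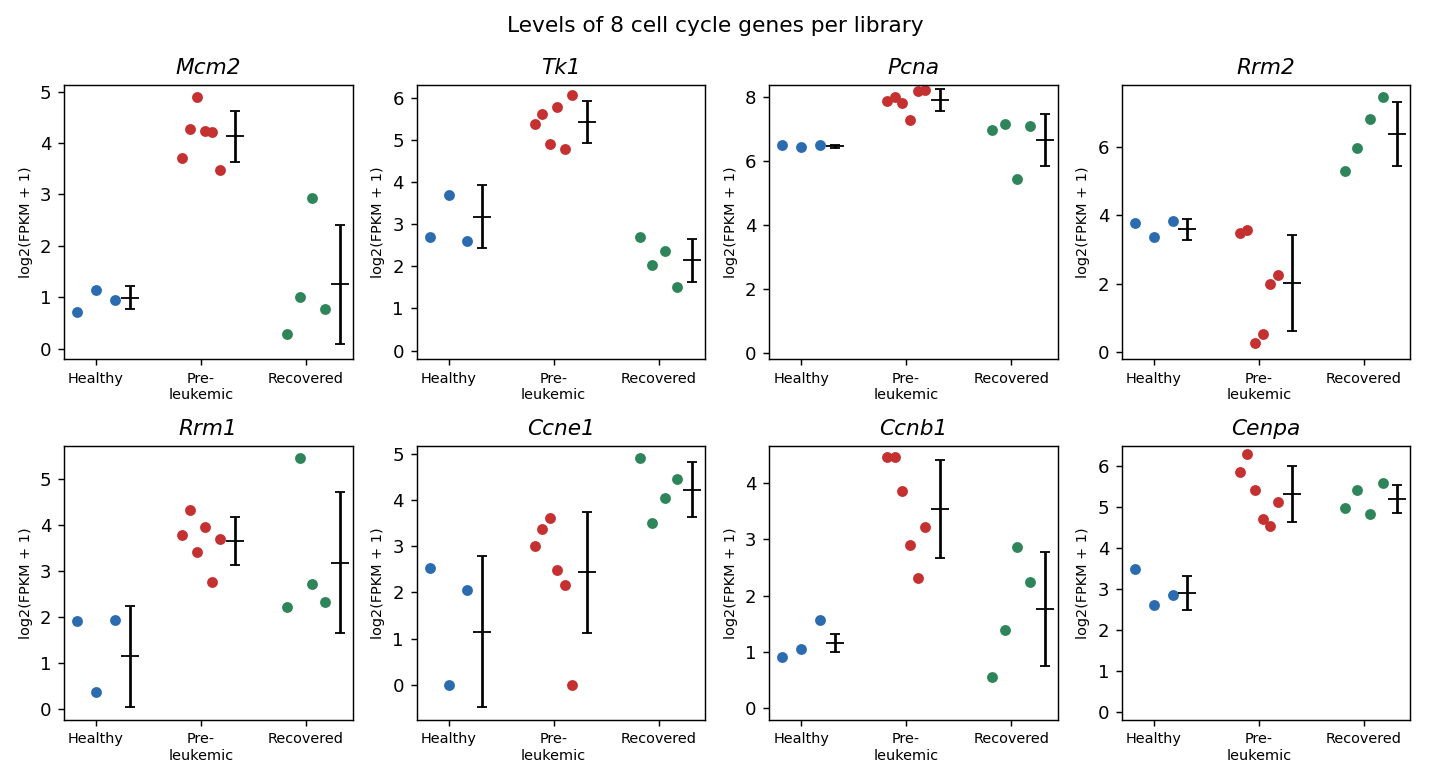
Levels of 8 cell cycle genes in each library on the log2(FPKM + 1) axis, 1 point per library, with the mean and SD of each group in black beside the points (healthy 1 and 3 averaged into 1 sample). Mcm2, Tk1, Ccnb1 and Cenpa show no overlap between pre-leukemic and healthy points, and all recovered points of Rrm2 lie above all others.

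Of the 8 calls, those of Mcm2 and Tk1 held without healthy 2, which leaves 1 healthy sample assumed to vary like the other groups; the other 6 ended, with adjusted p of 0.0546 (Cenpa), 0.146 (Pcna), 0.166 (Ccnb1), 0.26 (Ccna2), 0.276 (Mcm6, change 2.19) and 0.331 (Rrm1, change 1.73). Rrm1 was also lost without pre-leukemic 2 (0.0538) and Ccna2 without pre-leukemic 1 (0.0663), 2 (0.066) or 5 (0.0549), and on the TPM scale only Mcm2 of the 8 stayed called. With the replicate number as a block in the fit, Mcm6 (adjusted p = 0.0556) and Ccna2 (0.0603) were lost too.

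The second comparison asked what differed in recovered against pre-leukemic samples. It shares the pre-leukemic libraries with the first. Of the 32 members, 1 was called higher (3.12%) and 5 lower (15.6%), against 14.8% higher and 25.1% lower among all genes. Both shares of the members were below the shares of all genes. The 5 lower were Tk1, Mcm2, Pcna, Ccnb1 and Bub1b, and the 1 higher was Rrm2. The median change was -0.45 over the members and -0.41 over all genes. At an unadjusted p under 0.05, 2 members were higher and 6 lower.

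Tk1 was at 5.47, 3.10, 4.11 and 1.84 FPKM in recovered 1 to 4, all under the lowest pre-leukemic value of 26.6. The change was -3.27 ± 0.40 (adjusted p = 2.12e-05, range over alternatives 8.47e-06 to 0.00513). Mcm2 was at 0.223, 1, 6.68 and 0.706 FPKM, again with no overlap, and recovered 3 stood above the other recovered libraries (-2.88 ± 0.52, adjusted p = 0.000525, range 3.15e-05 to 0.0209). Both kept their call in all 24 alternatives.

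Pcna was at 124, 143, 42.6 and 135 FPKM in recovered libraries, each below the lowest pre-leukemic library (-1.23 ± 0.33, adjusted p = 0.00864). On the TPM scale its sign turned here as well (0.23, adjusted p = 0.741, range from 0.0023). Mcm6 was at 0.784, 13.5, 26.7 and 44.4 FPKM in recovered 1 to 4, a spread that ran from below the healthy level to above the pre-leukemic one (-1.21 ± 0.71, 0.188).

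Rrm2 was at 38.5, 61.3, 110 and 173 FPKM in recovered 1 to 4. Each of these exceeded all 9 values of the other groups, the highest of which was 13.3 FPKM. The change against pre-leukemic samples was 4.36 ± 0.68 (adjusted p = 0.000164, range 1.68e-05 to 0.00618), called in all 24 alternatives. Rrm1 was at 3.64, 42.6, 5.60 and 3.97 FPKM, high in recovered 2 alone, and did not differ detectably from pre-leukemic samples (-0.47 ± 0.62, adjusted p = 0.573). The ratio of Rrm2 to Rrm1 was 10.6, 1.44, 19.7 and 43.6, above 1 in each recovered library as in each healthy one. The difference between the 2 subunits was not tested.

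Ccne1, the other S phase gene with a positive difference near the threshold, was at 28.8, 10.4, 15.4 and 20.8 FPKM in recovered libraries, overlapping the pre-leukemic range only at pre-leukemic 3 (11.2). It differed by 1.79 ± 0.69 (adjusted p = 0.0508). Its relative Ccne2 was at 0.521, 0.585, 1.08 and 0.118 FPKM (-1.10 ± 0.52, 0.106).

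In mitosis, Ccnb1 was at 0.464, 1.62, 6.27 and 3.74 FPKM in recovered libraries, of which recovered 3 overlapped the pre-leukemic range (-1.77 ± 0.56, adjusted p = 0.0214, range 0.0071 to 0.462). Bub1b, the checkpoint protein BubR1 (chr2:118598211-118641591), was at 2.29, 1.02, 6.40 and 0.612 FPKM against 0.569 to 25.1 (median 16.5) in pre-leukemic libraries (-2.02 ± 0.74, adjusted p = 0.0418, range 0.00168 to 0.304). All 4 recovered values exceeded the lowest pre-leukemic value, that of pre-leukemic 4. The other 15 mitosis members tested were not called. Cenpa stayed at 30.6, 41.4, 27.2 and 46.6 FPKM, inside the pre-leukemic range (-0.13 ± 0.39, adjusted p = 0.823, 95% interval -0.97 to 0.71). Ube2c and Cdc20, the E2 enzyme and an activator of the anaphase-promoting complex, differed by 0.35 ± 0.82 (0.763) and 0.77 ± 0.91 (0.527).

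The calls of Ccnb1 and Bub1b ended under quantile normalization (adjusted p = 0.147 and 0.131) and on the TPM scale (0.462 and 0.304). With a pseudocount of 0.1 (0.0662) or no filter on low values (0.0777), that of Bub1b alone ended. The Ccnb1 call also ended without recovered 1 (0.0684) or recovered 2 (0.0502). That of Bub1b ended without any of 9 single libraries (0.051 to 0.107) and had a change of -2.60 without pre-leukemic 4 (adjusted p = 0.00168).

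The third comparison set recovered against healthy samples. Of the 32 members 1 was called higher (3.12%) and 0 lower, against 0.518% higher and 1.99% lower among all genes. The call was Cenpa, at 27.2 to 46.6 FPKM in recovered against 5.05 to 10.1 in healthy libraries (2.30 ± 0.53, adjusted p = 0.0343, range over alternatives 0.00978 to 0.455). Without healthy 2 it was 0.455 and without healthy 3 0.0603, and it was 0.0511 and 0.0523 without recovered 2 and 4. At an unadjusted p under 0.05, 5 members were higher and 0 lower.

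In 10 members every recovered library was above every healthy one, which is 31.2% of those tested against 6.64% of all genes; 0 members had every recovered library below. In S phase these were Rrm2 (2.78 ± 0.91, adjusted p = 0.138), Ccne1 (3.07 ± 0.92, 0.105), Rrm1 (2.04 ± 0.84, 0.237) and Ccne2 (0.62 ± 0.70, 0.738). Ccne2 lay at the floor, at 0 in every healthy library and 0.118 to 1.08 FPKM in recovered ones, an estimated 1 to 5 reads. In mitosis they were Cenpa, Ccna2 (1.62 ± 0.65, 0.226), Ccnb2 (0.81 ± 0.94, 0.751), Cdc20 (2.07 ± 1.22, 0.441), Ube2c (2.28 ± 1.10, 0.322) and Top2a (1.29 ± 0.79, 0.462). Ube2c was at 13.7, 9.15 and 9.20 FPKM in healthy and 60.2, 42.5, 32 and 101 in recovered libraries. Cdc20 was at 1.93, 3.05 and 2.15 FPKM against 9.85, 36.9, 11.6 and 8.09. Of the 10, Cenpa alone passed the adjusted threshold.

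None of the 5 members called lower in recovered than in pre-leukemic samples was called against healthy samples. Mcm2 differed from healthy by 0.26 ± 0.69 (adjusted p = 0.927, 95% interval -1.22 to 1.75) and Pcna by 0.20 ± 0.44 (0.898, -0.75 to 1.15). Ccnb1 differed by 0.59 ± 0.75 (0.774). Tk1 differed by -1.03 ± 0.54 (0.378, -2.19 to 0.13) and Bub1b by -1.40 ± 0.99 (0.541, -3.51 to 0.72), with recovered 1, 2 and 4 below all 3 healthy libraries for Bub1b. With 2 healthy samples these intervals are wide, and a missed threshold does not show equal levels.

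**Figure D3:**
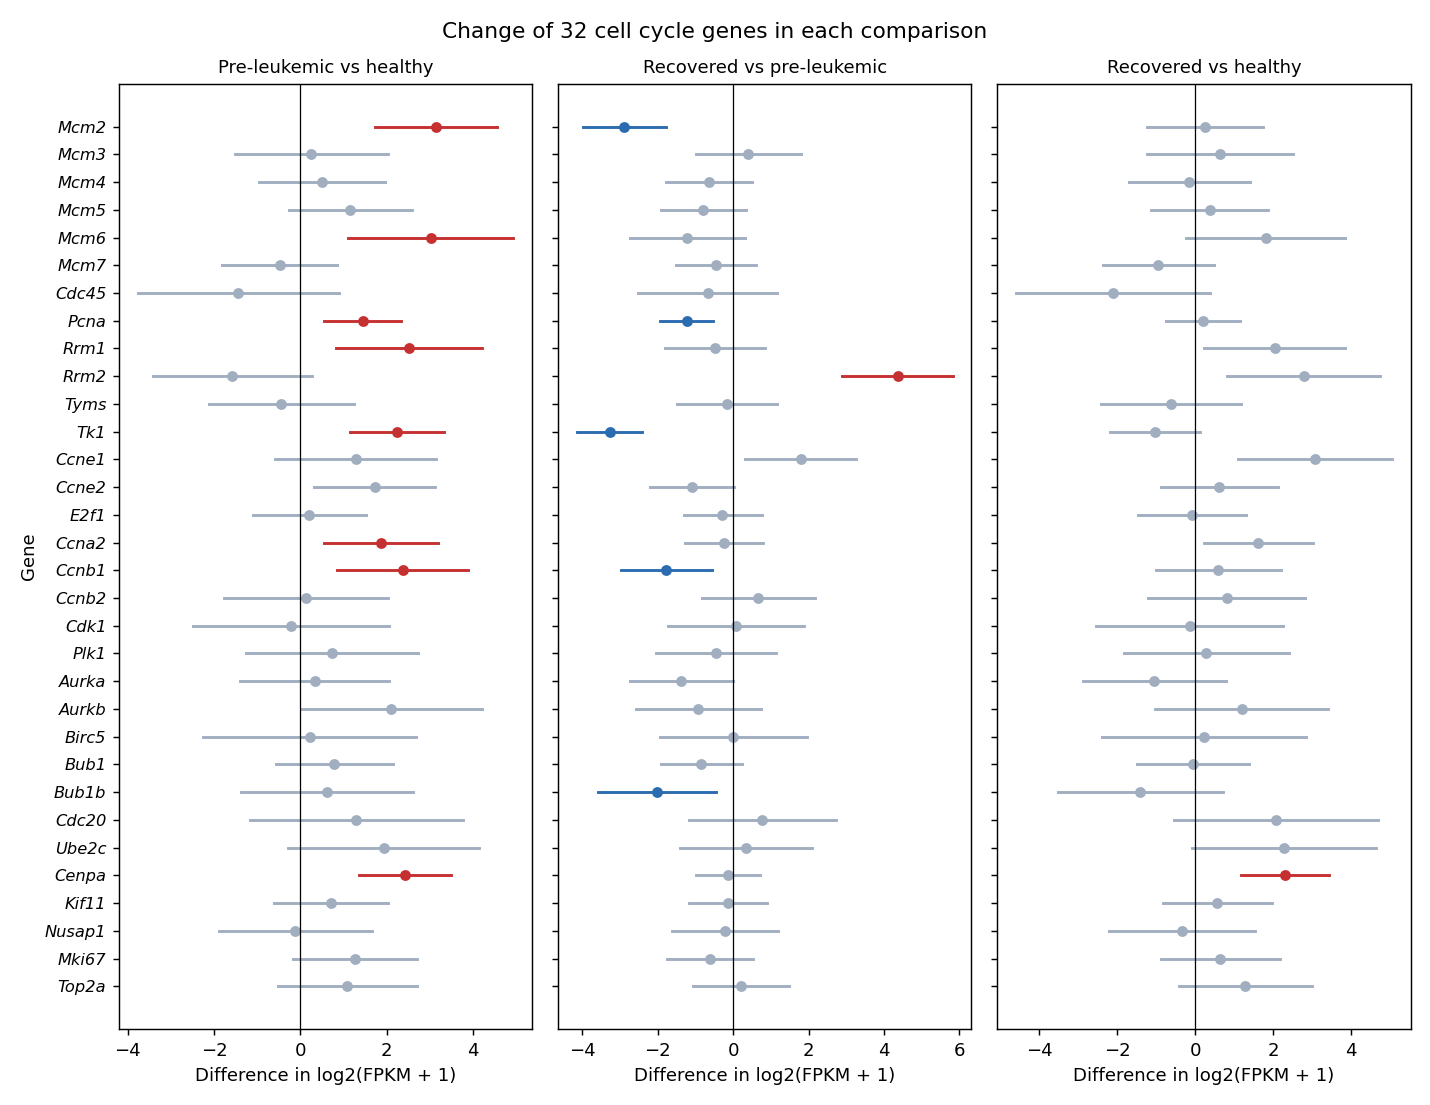
Difference in log2(FPKM + 1) with its 95% confidence interval for the 32 cell cycle genes tested, in 3 panels, 1 per comparison. Red marks genes called higher and blue genes called lower at an adjusted p under 0.05; 8 genes are red on the left, Rrm2 is red and 5 genes are blue in the middle, and Cenpa is red on the right.

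Other cells' markers moved with these results. Beside the rises in pre-leukemic samples, 16 of 16 pan-leukocyte, 11 of 11 plasma cell and 7 of 12 neutrophil and granulocyte precursor markers were called higher. Also higher were 10 of 12 T and NK cell and 5 of 7 monocyte and macrophage markers tested. Of 12 pre-B and B cell markers tested, 4 were higher and 4 lower. Lower were 14 of 16 mesenchymal and 3 of 6 erythroid markers, and 0 of 6 endothelial markers were called. Among all genes 14.2% were higher and 13.1% lower. Beside the level of Rrm2 in recovered samples, the 12 erythroid markers summed to 1650.8 to 2637.9 FPKM, against 37.4 to 51.7 in healthy and 0 to 7.0 in pre-leukemic libraries. That sum was made up mostly of globins (Hba-a1, 315 to 593 FPKM in recovered libraries). Of the 6 erythroid markers tested, 4 were called higher in recovered than in pre-leukemic samples, against 14.8% of all genes. Against healthy samples 4 of 6 were called higher too, beside 0.518% of all genes. Gata1 and Epor were listed at 0 in all 4 recovered libraries, and Klf1 and Rhag were above 0 in recovered 2 only (44.8 and 13.8 FPKM). Within the recovered group Rrm2 was highest in recovered 4 (173) and at 61.3 in recovered 2. Recovered 2 had the highest value of its group in 8 of 34 members, Rrm1 and Top2a among them, against 4 in recovered 1, 10 in recovered 3 and 12 in recovered 4. Recovered 3, the highest for Mcm2, Ccnb1 and Bub1b, also stood apart in other markers: pre-B and B cell markers summed to 1152.1 there and 88.1 to 258.1 in the other 3 recovered libraries, pan-leukocyte markers to 277.8 against 54.9 to 66.2, and endothelial markers to 141.3 against 0.1 to 11.3. The part of other cells in the members' levels was not tested.

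S phase and mitosis genes varied differently among the pre-leukemic libraries. The summed FPKM of the 15 S phase genes ran from 315.1 to 533.8 in pre-leukemic libraries, while that of the 19 mitosis genes was 593.7, 549.8, 220.6, 57.61, 215.6 and 172.0 in pre-leukemic 1 to 6. Pre-leukemic 1 and 2 were high and pre-leukemic 4 was low, below all 3 healthy libraries at 90.57, 80.37 and 84.34. The median SD of log2(FPKM + 1) in pre-leukemic samples was 1.33 over mitosis members, 0.82 over S phase members and 0.54 over all genes. In healthy samples the medians were 0.31, 0.63 and 0.37, and in recovered ones 0.70, 1.03 and 0.92.

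The split ran through most mitosis members. In 16 of 19 the 2 highest pre-leukemic libraries were pre-leukemic 1 and 2, the exceptions being Bub1, Bub1b and Cenpf, against 6 of 15 S phase members. Pre-leukemic 4 was lowest or tied for lowest in 14 of 19 mitosis members, and 13 of the 19 were under 1 FPKM there. These rankings were not counted over all genes, so they are not shown to be particular to mitosis genes. Over all genes, pre-leukemic 1 and 2 were also the most alike pair of their group (r = 0.934). Ube2c was at 187, 133, 42.4, 3.14, 47.0 and 27.8 FPKM in pre-leukemic 1 to 6. Cdc20, whose promoter holds TTTGAA and 2 CCAAT words, was at 28.8, 32.5, 16.1, 0.147, 11.2 and 0.761. Birc5, survivin, a partner of Aurora B, was at 58.1, 59.4, 14.5, 0, 30.4 and 22.9. Among S phase members pre-leukemic 4 was lowest or tied for lowest in 6 of 15 and under 1 FPKM in 4, with Cdc45, Ccne2 and E2f1 listed at 0, and it had the lowest Pcna (155) and the lowest S phase sum (315.1) of its group. Its Mcm2 (17.9), Mcm6 (30.5) and Tk1 (53.8) lay within the range of the other pre-leukemic libraries.

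The immunoglobulin share and markers of granulocyte precursors also differed among these libraries. Immunoglobulin genes made up 54.9 and 55.3% of all FPKM in pre-leukemic 1 and 2, and 80.4, 80.5, 70.7 and 76.2% in pre-leukemic 3 to 6. Elane, a protease of granulocyte precursors, was at 220, 182, 0, 0.304, 59.2 and 398 FPKM in pre-leukemic 1 to 6, and Mpo at 91.5, 141, 0, 0, 7.54 and 200. Both were high in pre-leukemic 1, 2 and 6 and at or near 0 in 3 and 4. Pre-leukemic 6, with the highest Elane, had a mitosis sum of 172.0. Whether either bears on the mitosis genes was not tested.

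**Figure D4:**
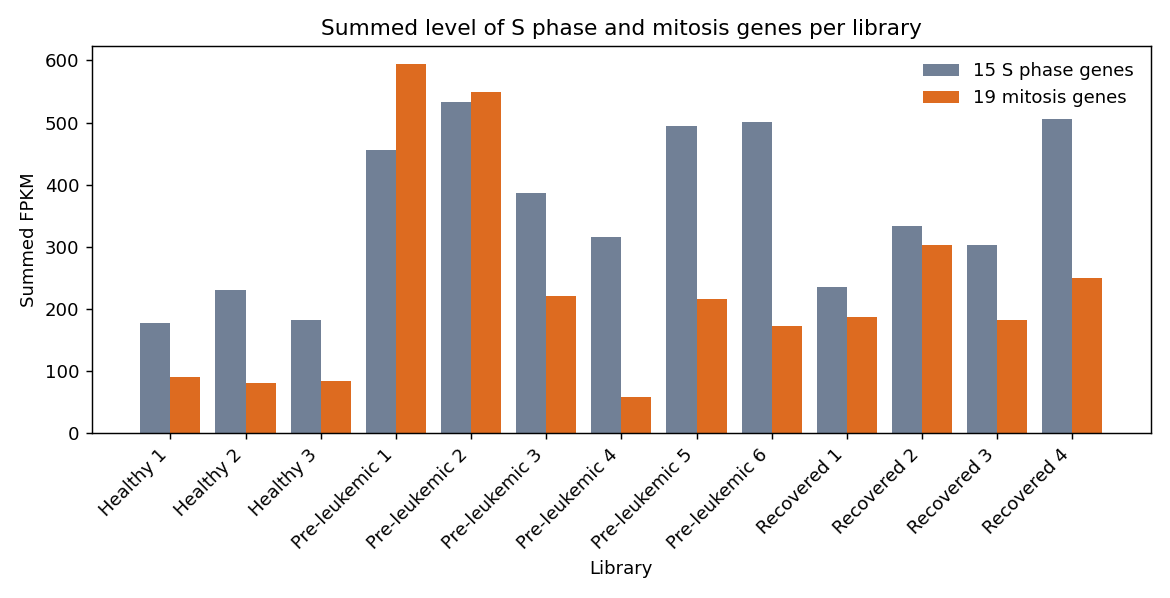
Summed FPKM of the 15 S phase genes (grey bars) and the 19 mitosis genes (orange bars) in each of the 13 libraries, from an axis at 0. Mitosis bars reach 593.7 and 549.8 in pre-leukemic 1 and 2 and fall to 57.61 in pre-leukemic 4, while the pre-leukemic S phase bars stay between 315.1 and 533.8.

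Beyond the 34 members, 9 lists of other cell cycle genes were examined, beside 27.3% of all genes called in either direction in the first comparison and 40.0% in the second. The share called was below both of these in 7 of the 9 lists. Of 25 tested genes of the replication fork and DNA synthesis 4 were higher and 1 lower in pre-leukemic than in healthy samples, and 2 were higher and 5 lower in recovered than in pre-leukemic samples (20% and 28% called). Rfc4, a subunit of the clamp loader that places PCNA on DNA, differed by 2.69 ± 0.61 (adjusted p = 0.00452) and then -2.53 ± 0.48 (0.000865). Rfc2 of the same complex and the primase subunit Prim1 fell in the second comparison (-2.66 ± 0.40, 0.00012, and -2.49 ± 0.46, 0.000689). On the TPM scale the adjusted p of these 4 changes was 0.125, 0.0615, 0.0663 and 0.0672, the highest over their alternatives.

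Of 14 licensing and initiation genes 1 was higher in pre-leukemic samples and 3 lower in recovered ones (7.14% and 21.4% called). Dbf4, the activator of the Cdc7 kinase that fires origins, differed by 2.39 ± 0.60 (adjusted p = 0.0083) and -2.24 ± 0.47 (0.00181), and Gmnn, geminin, which blocks relicensing, by -2.12 ± 0.54 (0.00661) in the second comparison. The first Dbf4 call ended without healthy 2 (0.117, range 0.000711 to 0.176). On the TPM scale the second Dbf4 call (-1.25, 0.0903, lowest over alternatives 0.000513) and the Gmnn call (-0.86, 0.333, lowest 0.00244) ended too.

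Of 13 E2F and MuvB regulators 2 were higher in pre-leukemic and 3 lower in recovered samples (15.4% and 23.1% called). Rbl1, the pocket protein p107 that binds repressor E2Fs, was at 1.89, 0.679 and 1.53 FPKM in healthy libraries, 5.51 to 10.4 in the pre-leukemic ones and 0, 0, 0.775 and 0.711 in recovered libraries. It differed by 1.90 ± 0.48 (0.00884, but 0.157 without healthy 2, range 0.00175 to 0.355) and -2.60 ± 0.38 (9.46e-05, called in the 23 alternatives in which it was tested; a mean of at least 5 FPKM left it out).

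Mitosis lists held few calls. Of 16 spindle motor and assembly genes 1 was higher in pre-leukemic samples and 0 changed in recovered ones, where 1 was lower at an unadjusted p under 0.05 (6.25% and 0% called). Among 19 kinetochore and checkpoint genes the counts were 1 higher, then 3 lower (5.26% and 15.8%). Mad2l1, a spindle checkpoint protein, differed by 3.23 ± 0.86 (adjusted p = 0.0123) and -2.19 ± 0.68 (0.0201). Its first call ended without healthy 2 (0.156, range 0.000916 to 0.156), and its second without recovered 1 (0.0684) or 2 (0.0668). Condensin and cohesion held 4 of 12 higher in pre-leukemic and 5 of 12 lower in recovered samples (33.3% and 41.7% called). Smc4, a condensin core subunit, differed by 2.07 ± 0.57 (0.0141) and -1.60 ± 0.45 (0.0113), but on the TPM scale by 0.58 (0.484, lowest over alternatives 0.00172) and -0.27 (0.711, lowest 0.00301).

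Of 20 genes of mitotic entry, exit and cytokinesis 1 was higher and 1 lower in pre-leukemic samples, and 1 was higher and 2 lower in recovered ones (10% and 15% called). Ube2s, an E2 enzyme of the anaphase-promoting complex, differed by -1.13 ± 0.31 (adjusted p = 0.0149) and 0.93 ± 0.25 (0.00845). Its first call ended without healthy 2 (0.106, range 0.000593 to 0.106) and its second under quantile normalization (0.55, 0.138) and sums without immunoglobulin genes (0.60, 0.0857, lowest over alternatives 0.000217). Fzr1, the Cdh1 activator of that complex, differed by 2.66 ± 0.53 (0.00188) and -1.49 ± 0.42 (0.0119). Its first call ended without healthy 2 (0.0743, change 1.98, range 0.000203 to 0.194), and on the TPM scale the second change was -0.08 (0.923, lowest 0.00359).

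Most cyclin-dependent kinase inhibitors and quiescence genes that were called changed in the opposite direction to Mcm2. Of the 10 tested, 1 was higher and 5 were lower in pre-leukemic than in healthy samples, and 5 were higher and 1 lower in recovered than in pre-leukemic samples. In each comparison 60% were called, against 27.3% and 40.0% of all genes. None was called in recovered against healthy samples by limma, where 0 were higher and 1 was lower at an unadjusted p under 0.05. Cdkn1a, the inhibitor p21, was at 297, 271 and 297 FPKM in healthy libraries, 8.57 to 47.2 in the pre-leukemic ones and 247, 333, 382 and 335 in recovered libraries. No pre-leukemic library overlapped another group, and the changes were -3.90 ± 0.48 (adjusted p = 4.17e-05) and 4.08 ± 0.38 (1.65e-06).

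Tob1, an antiproliferative adaptor, went from 166, 118 and 166 FPKM in healthy to 5.51 to 22.8 in pre-leukemic and 145, 178, 254 and 161 in recovered libraries (-3.74 ± 0.49, adjusted p = 7.22e-05, and 4.10 ± 0.39, 1.88e-06). Gas1, a growth-arrest gene, was at 330, 468 and 339 FPKM in healthy, 2.41 to 46.6 in the pre-leukemic and 261 to 336 in the recovered ones (-4.97 ± 0.73, 0.000186, in the first comparison). Cdkn1b, the inhibitor p27, was at 79.5, 49.9 and 78.0 FPKM, 10.8 to 22.7 and 72.7 to 177 (2.97 ± 0.34, 1.19e-05, in the second). The named changes of Cdkn1a, Tob1, Gas1 and Cdkn1b held in all 24 alternatives, TPM included.

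Of 10 G1 cyclins and kinases and Myc genes, 0 were higher and 1 was lower in pre-leukemic samples, and 2 were higher and 0 lower in recovered ones (10% and 20% called). Myc, a growth-promoting transcription factor, was at 107, 156 and 106 FPKM in healthy libraries, 7.72 to 39.3 in the pre-leukemic ones and 83.5, 90.9, 68.5 and 116 in recovered libraries. It changed in the same direction as Cdkn1a in both comparisons (-2.48 ± 0.54, adjusted p = 0.00323, and 1.94 ± 0.42, 0.00236), and its first call ended without healthy 2 (0.0708, range 1.85e-05 to 0.0708). Ccnd1, cyclin D1, which carries growth signals into the cycle, rose in recovered samples (1.54 ± 0.48, 0.0208), though not without recovered 4 (0.0579, range 0.000289 to 0.0617). As above, 14 of 16 mesenchymal markers were lower in pre-leukemic and 14 of 16 higher in recovered samples beside these changes, and the part of cell makeup was not tested.

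**Figure D5:**
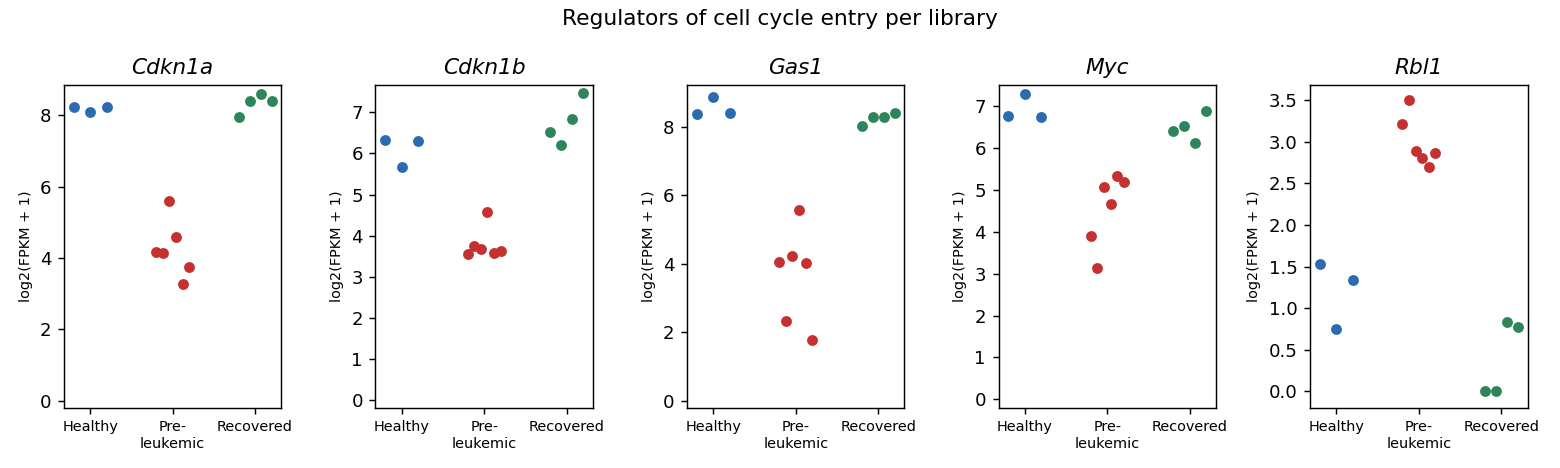
Levels of the inhibitors Cdkn1a and Cdkn1b, the growth-arrest gene Gas1, Myc and the pocket protein gene Rbl1 in each library, 1 point per library, on the log2(FPKM + 1) axis. Pre-leukemic points lie below both other groups for the first 4 genes and above them for Rbl1, without overlap.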

How the data were processed

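RNA from 13 MSC libraries was made into cDNA and libraries with a Nextera XT kit, per the labels' protocols. The authors deposited 1 table of FPKM per gene. Per the submitters' processing notes, bcl2fastq, TopHat, Cufflinks 2.2.1 and Cuffnorm with the mm10 build were used; how library sizes were set, and which annotation was counted, is not given in the sources used here. Reads per value are unknown; depth was estimated from the steps of low FPKM values in 2820 single-transcript genes of at least 800 bp (tolerance 0.06 on the log2 scale). A single row without a name, at 0 throughout, was left out.

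Levels were tested as log2(FPKM + 1) with limma 3.58.1 (R 4.3.3; lmFit and eBayes with trend, 3 groups in 1 fit, 9 residual degrees of freedom), over genes that reached 1 FPKM in 3 or more libraries, with Benjamini-Hochberg adjustment and a threshold of 0.05. The procedure was tested on simulated data. Healthy 1 and 3 (chi-square per degree of freedom 1.21 and 1.22 in genes of 10 to 100 and 100 to 1000 estimated reads) entered as their mean. The members and gene lists were chosen with earlier results of these data known. Full values are given for members called in a comparison, up to 8 by smallest p, and for Mki67, Top2a, Pcna and Mcm2; other members by range and count; of each other list up to 3 called genes by smallest p. Members named for their spread among pre-leukemic libraries, for lying apart in recovered libraries or for their promoters were chosen after their values were seen. Gene positions are those of GENCODE vM21 on GRCm38, and promoters those of RefSeq on GRCm38.p6. In all, 24 alternatives were run: 13 left out 1 library each, and the rest changed the scale, filter, pseudocount, model or replicate handling. Python 3.11.15, pandas 2.3.3, scipy 1.17.1 and matplotlib 3.10.9 were used.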

Additional observations from a re-analysis of the deposited data

Results flagged for a closer look

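Each of the 34 members was checked in the pre-leukemic and the recovered group for a single library far from the others of its group on the log2(FPKM + 1) scale. Of 68 such groups 8 stood out, where chance alone flags about 1 in 20, or 3.4 here. The 3.4 takes the 68 as independent, but several of the 8 lie in the same library. No excess over chance can therefore be read from the count.

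In pre-leukemic 4, 4 mitosis genes lay far below the other 5 pre-leukemic libraries. Ccnb2 was at 0.485 FPKM there and at 13.3 to 38.7 in the others. Aurkb, Aurora kinase B, was at 0.965 FPKM against 15.3 to 39.1. Birc5 was listed at 0 against 14.5 to 59.4, and Bub1b was at 0.569 against 8.63 to 25.1.

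In the recovered group, Mcm3 was low in recovered 1 (1.77 FPKM against 20.6 to 28.0 in the others). Pcna was low in recovered 3 (42.6 FPKM against 124 to 143). Rrm1 was high in recovered 2 (42.6 FPKM against 3.64 to 5.60). Cenpe was above 0 in recovered 3 alone, at 0.0784 FPKM, an estimated 1 read.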

How the results depend on the processing

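Mcm2 in the first comparison and Mcm2, Tk1 and Rrm2 in the second kept direction and call in all 24 alternatives. The TPM scale, which shifted the median of all genes by -1.28 in pre-leukemic against healthy samples, left 1 member higher and 2 lower there, and 24 of 32 members were above the median of all genes on either scale. It reversed Pcna (-0.23, then 0.23), gave 3 higher and 2 lower members in recovered against pre-leukemic samples, and moved the summed level to 467.9 (healthy), 453.4 (pre-leukemic) and 814.8 (recovered). Pre-leukemic libraries had the largest totals of FPKM, from 1225061 up to 2986391, of which immunoglobulin genes made up 54.9 to 80.5%. Recovered libraries totalled between 624511 and 842529, and healthy ones between 601969 and 626347. The TPM scale sets all totals equal, so it lowered the other genes of pre-leukemic libraries relative to those groups. Why the totals differed was not tested. Over all genes the TPM scale gave 790 higher and 4199 lower, against 1858 and 1725, in the first comparison and 3768 and 1213, against 1945 and 3299, in the second. Scaling to the same sum without immunoglobulin genes gave 8 higher and 0 lower members in the first comparison and 1 higher and 5 lower in the second. Quantile normalization gave 2 higher and 3 lower members in recovered against pre-leukemic samples, and 2460 and 2424 over all genes. Members higher there were also 2 with a mean of at least 5 FPKM, with only the groups compared, with robust eBayes, and with healthy 1 and 3 separate. In recovered against healthy samples 0 were called under quantile normalization, the TPM scale, sums without immunoglobulin genes, only the groups compared, and array weights.

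Leaving out 1 library at a time gave 2 (without healthy 2) to 11 (without pre-leukemic 4) members higher and 0 lower in pre-leukemic against healthy samples. In recovered against pre-leukemic samples it gave 1 to 2 higher (2 without healthy 1, healthy 2, pre-leukemic 2, pre-leukemic 3 or recovered 2) and 3 (without recovered 1 or 2) to 7 (without pre-leukemic 4) lower. In recovered against healthy samples it gave 0 (without healthy 2, healthy 3, recovered 2 or recovered 4) to 2 (without pre-leukemic 6 or recovered 1) higher and 0 lower. Summed levels ran from 267.7 to 289.2 (healthy), 682.6 to 824.8 (pre-leukemic) and 515.4 to 626.3 (recovered).

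Deviations of same-numbered libraries from their group means correlated at -0.02 to 0.03, which gave no sign of pairing by replicate number. The check cannot exclude a pairing, because the groups differ in their cell markers. A fit with the replicate number as a block gave 11 members higher and 0 lower in the first comparison, 1 and 5 in the second, and 1 and 0 in the third, where the same 13 libraries without the block gave 10 and 0, 2 and 5, and 1 and 0. The members called were not all the same. In the first comparison the block ended the calls of Mcm6 (adjusted p = 0.0556) and Ccna2 (0.0603). Against the main fit it added Ccne2, Aurkb, Cdc20, Mki67 and Top2a. Depth limits members' values under 1 FPKM, which rest on a median of 6 estimated reads, and the 2 healthy samples limit every comparison with that group.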
